A study of Caenorhabditis elegans with 12 samples.

Results

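The cytochrome P450 (cyp), UDP-glucuronosyltransferase (ugt) and glutathione S-transferase (gst) genes of the nematode Caenorhabditis elegans were followed across 12 one-colour expression arrays. Members were chosen by gene symbol alone (cyp, ugt or gst followed by a number), and each gene was represented by the probe set with the highest mean signal among those that the platform's annotation assigns to 1 gene. This gave 177 genes, 73 cyp, 64 ugt and 40 gst, of 17118 genes with such a probe set. The gene table used for names lists 191 genes of the families, and 4 probe sets that the annotation assigns to a family gene together with another gene were left out.

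The study set 2 strains side by side, with or without a heat shock, to follow the transcription factor HLH-8, the worm's Twist, and its partner HLH-2. The HLH strain (6 arrays, title codes 2 and 1, 3 each) carried the reporter egl-15::gfp, the transformation marker plasmid pRF4 and the transgenes pHS::hlh-8 and pHS::hlh-2. The marker strain (6 arrays, title codes 4 and 3, 3 each) carried egl-15::gfp and pRF4 without these transgenes. Age, stage and sex are not in the labels, and which title codes stand for heat shock is not stated, so they are given as codes below.

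Worms meet plant, bacterial and man-made toxins with a pathway in 3 steps. Cytochrome P450 enzymes oxidise a compound, UDP-glucuronosyltransferases attach a sugar and glutathione S-transferases attach glutathione, and export pumps of the ABC family then move the conjugate out of the cell. Much of this chemistry takes place in the intestine, and many gst genes are targets of the stress factor SKN-1, which the protein WDR-23 holds in check. Members of all 3 families also act on the worm's own molecules, among them fatty acids, steroids and products of lipid peroxidation.

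Each array gave 1 MAS5 signal per probe set, scaled by the authors to a common mean, and array medians lay between 180.3 and 208.0. Transcripts of the transgenes and of heat shock genes were read as a check of the labels. The hlh-8 signal was 707.7 to 4842.8 on HLH arrays and 130.0 to 200.7 on marker arrays. The heat shock gene hsp-16.41 had 4260.6 to 5233.5 at code 2 against 30.2 to 127.1 at code 1, and 3789.4 to 5505.3 at code 4 against 38.4 to 105.5 at code 3. Titles also carry a set number from 1 to 3. The array titled 2_2 (2) repeats the title of another code 2 array while set 3 has no code 2 array, so its set is uncertain and it was left out wherever sets were compared. Its log2 signals differed from those of its namesake with an SD of 0.478, within the 0.382 to 0.680 of other pairs of a group, so it was counted as a sample of its own. The design text calls the replicates biological, and the small number of arrays limits the precision of every value.

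Many of these genes gave low signals. A member was tested where its signal was above the median of its own array on at least 3 of the 12 arrays, which 108 did: 33 cyp, 45 ugt and 30 gst genes. No array showed a signal above its median for 34 cyp, 16 ugt and 8 gst genes, while 26 cyp, 31 ugt and 19 gst genes passed on all 12 arrays. Signals of different probe sets depend on their probes and are not levels that can be set against each other.

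The brightest cyp probe sets, with mean signals over 12 arrays of 941 to 1252, were those of cyp-37A1, cyp-35A2, cyp-25A2, cyp-37B1 and cyp-34A9. The gene cyp-35A2 is known from its strong response to foreign compounds and for its part in fat storage. It was the 1 gene of its cyp-35A group that could be tested. Its relative cyp-35A5 was the brightest untested cyp gene at a mean signal of 166.6, with a range of 106.7 to 251.8, followed by cyp-13A8 at 154.3 and cyp-25A6 at 152.9. Among the ugt genes ugt-22, ugt-62, ugt-58, ugt-23 and ugt-46 were brightest, with means of 1226 to 2199, and among the gst genes gst-7, gst-1, gst-10, gst-36 and gst-5, with means of 1973 to 3944. The enzyme GST-1 is known for protecting dopamine neurons, and GST-10 conjugates a toxic aldehyde from lipid peroxidation. The brightest untested genes of these families were ugt-7 at 153.1, ugt-51 at 153.1 and ugt-4 at 145.5, and gst-2 at 160.2, gst-11 at 159.1 and gst-9 at 116.7.

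The spread over the 12 arrays also differed between members. The SD of log2 signal was largest for gst-41 at 0.80, gst-21 at 0.79, ugt-41 at 0.72 and gst-44 at 0.70, and for cyp-34A9 at 0.68 and cyp-37B1 at 0.67 among the cyp genes. Other variable members were gst-27 at 0.59, ugt-23 at 0.66, ugt-17 at 0.65, ugt-26 at 0.63, cyp-33C3 at 0.58 and cyp-34A3, a pseudogene in the gene table, at 0.44. The steadiest tested members were ugt-58 at 0.11 and ugt-66 at 0.13, cyp-33C9 at 0.16 and cyp-33E2 at 0.17, and gst-24 at 0.19 and gst-23 at 0.23. Signals of ugt-58 stayed between 1380.3 and 1726.2 on all 12 arrays. For gst-4, a widely used reporter gene of SKN-1 activity, signals ran from 1149.1 to 2301.4, and it passed no test described below.

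The HLH strain was compared with the marker strain over both codes. The ugt-41 and cyp-13A10 transcripts were higher in the HLH strain, while ugt-26, gst-41, cyp-34A9, cyp-37B1, ugt-44 and 4 other members were lower. In all, 11 of the 108 tested members passed, 2 higher and 9 lower. These are 10.2% of the tested members, where 2.72% of all tested probe sets passed (1.13% higher and 1.59% lower). By family, 3 of 33 cyp, 6 of 45 ugt and 2 of 30 gst genes passed. Among these gst-44 passed the filter on dim signals through marker arrays alone. Over the members that passed the filter through arrays of both strains, 10 of 107 passed (9.35%), 2 higher and 8 lower, against 2.47% of all such probe sets. The median log2 difference was −0.08 over the members and 0.05 over all 12328 tested probe sets.

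Signals of ugt-26 had a lowest value of 674.4, a median of 711.5 and a highest of 861.4 on HLH arrays, against 1059.7, 1584.9 and 2128.6 on marker arrays. The HLH arrays all lay below the marker arrays. The difference was −1.06 ± 0.12 (SE) on the log2 scale, with an adjusted p of 0.000442 in limma. In the annotation's gene order ugt-26 is followed by ugt-27, ugt-28 and ugt-25. Of these ugt-28 and ugt-25 were tested and did not pass, and ugt-25 was higher in the HLH strain with the set number as a block (log2 0.48, adjusted p = 0.0113).

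For ugt-41 the direction was opposite. Its lowest, median and highest signals were 452.3, 788.9 and 941.6 on HLH arrays, against 233.1, 305.4 and 366.1 on marker arrays. The strains did not overlap, and HLH arrays had 2.41-fold the signal of marker arrays (difference 1.27 ± 0.16 on the log2 scale, SE, with an adjusted p of 0.000833). The gene cyp-13A10 was 1.59-fold higher (log2 0.67 ± 0.14, SE, adjusted p = 0.0282), with mean signals of 801 ± 101 in the HLH strain and 508 ± 94 in the marker strain (SD, n = 6 each), and its strains overlapped through the array titled 2_2 (2), which had 620.7.

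Of the glutathione S-transferases, gst-41 had 140.3 at the lowest, 254.3 at the median and 369.2 at the highest on HLH arrays, against 488.1, 609.5 and 828.8 on marker arrays. No HLH array reached a marker array, and the difference was −1.35 ± 0.16 (SE, log2, adjusted p = 0.000776). It was uneven over the sets, at −1.44 in set 1, −1.76 in set 2 and −0.55 in set 3, on the log2 scale. The other gst gene that passed, gst-44, had 66.4, 87.5 and 145.8 on HLH arrays, against 157.7, 199.8 and 330.0 on marker arrays, with a log2 difference of −1.11 ± 0.26 (SE, adjusted p = 0.0399). Only marker arrays took gst-44 above the array median, so the filter favoured a lower value of it in the HLH strain.

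The P450 gene cyp-34A9 had 448.2 at the lowest, 595.3 at the median and 685.9 at the highest on HLH arrays, against 938.5, 1177.2 and 1928.0 on marker arrays. Its strains were apart, with a log2 difference of −1.14 ± 0.19 (SE, adjusted p = 0.00592) that was −1.22 in set 1, −1.62 in set 2 and −0.57 in set 3. For cyp-37B1 the values were 398.0, 694.2 and 976.8 on HLH arrays, against 738.3, 1342.6 and 1822.6 on marker arrays. These overlapped, and the difference was −0.93 ± 0.16 (SE, log2, adjusted p = 0.00927).

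Signals of ugt-44 were 763 ± 105 in the HLH strain and 1209 ± 152 in the marker strain (SD, n = 6 each), with no overlap (log2 −0.67 ± 0.13, SE, adjusted p = 0.0140). The calls of ugt-31 (log2 −0.80, adjusted p = 0.0279), ugt-12 (log2 −0.68, adjusted p = 0.0424) and ugt-13 (log2 −0.68, adjusted p = 0.0484) came with overlapping strains. All 3, and with them cyp-13A10 and gst-44, lost the call when any of 9 to 11 of the 12 single arrays was left out. The calls of ugt-26, gst-41, ugt-41 and cyp-34A9 held under each alternative and without each single array, and those of cyp-37B1 and ugt-44 were lost without the 4 arrays of set 2 (adjusted p = 0.0652 and 0.109).

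**Figure D1:**
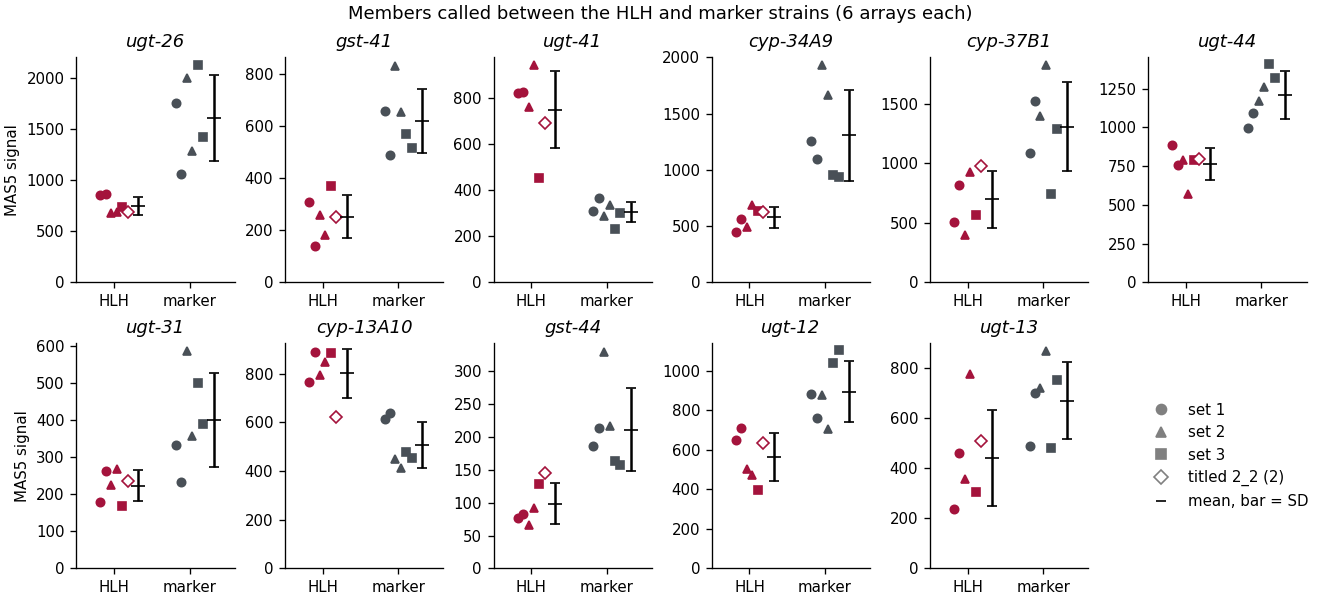
MAS5 signal on every array for the 11 members that passed between the strains, HLH arrays left of marker arrays in each panel, with markers for the set number and black bars for the mean and SD of 6 arrays. The strains are apart for ugt-26, gst-41, ugt-41, cyp-34A9, ugt-44 and gst-44, and ugt-41 and cyp-13A10 are the 2 members higher in the HLH strain.

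Over all tested members 9 had no overlap between the strains: ugt-41 and ugt-32 were higher in the HLH strain, and ugt-26, ugt-44, ugt-2, ugt-61, gst-41, gst-44 and cyp-34A9 lower. Of all tested probe sets 3.18% had none. Without gst-44 there were 8 of 107, against 2.87% of the probe sets that passed the filter through both strains. Arrays of the same set deviated together from their group means, and with the set number as a block 31 of 108 members passed, 11 higher and 20 lower, against 14% of all tested probe sets (6.78% higher and 7.26% lower). By family 18 of 45 ugt, 8 of 33 cyp and 5 of 30 gst genes then passed. Among the added genes were ugt-22, with 2656 in the HLH strain and 1741 in the marker strain as mean signals (log2 0.74 with the block, adjusted p = 0.00163), ugt-16 (log2 0.88, adjusted p = 0.00952), gst-10 (log2 0.51, adjusted p = 0.0173) and, in the other direction, ugt-61 (log2 −0.67, adjusted p = 0.00249) and gst-7 (log2 −0.34, adjusted p = 0.0414).

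Markers of the intestine lay mostly below 0 in this comparison. Of 9 intestine marker genes 8 were below 0 (41.7% of all tested probe sets), with a median of −0.31 on the log2 scale. None passed by limma without the block, and 5 had an unadjusted p under 0.05 (16.1% of all tested probe sets). With the block 6 were lower (7.26% of all tested probe sets), ges-1 at −0.65 and ifb-2 at −0.45. The summed signal of the 9 genes was 32121 to 46152 on HLH arrays and 38197 to 58150 on marker arrays. All 6 body wall muscle markers were below 0 (median −0.27; 5 lower with the block), and 1 of 7 germline markers passed, cpg-2 at −1.18, with sqv-4 added at 0.71 with the block. Of 9 hypodermal markers 8 were above 0, with a median of 0.16. The summed signal of the hypodermal list, rol-6 included, was 34416 to 45067 on HLH arrays and 27405 to 32417 on marker arrays, without overlap. No sum was taken without rol-6, so its part in this gap is not known. The gene rol-6, which pRF4 carries in mutant form, was the 1 that passed, at 1.05, and with the block qua-1 also passed, at 0.45. The part of these tissues in the differences above was not tested, and in RNA from lysates fewer cells of a type and less RNA per cell cannot be told apart.

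Other genes of detoxification were read from a list of 56, of which 52 are on the array and 44 were tested. None passed between the strains by limma without the block, where 2.72% of all tested probe sets did. In that fit 9 of the 44 had an unadjusted p under 0.05, against 16.1% of all tested probe sets. With the block 5 of the 44 passed (11.4%), a share below the 14% of all tested probe sets, so the list as a whole did not stand out there. The export pump gene pgp-5 had mean signals of 130 in the HLH strain and 385 in the marker strain (log2 −1.41 with the block, adjusted p = 0.000306), and the catalase gene ctl-2 had 2148 in the HLH strain and 2866 in the marker strain (log2 −0.42, adjusted p = 0.00442). The monooxygenase gene fmo-3 was higher at 0.45, and fmo-2 and the omega class gene gsto-1 were lower at −0.66 each. The P450 reductase gene emb-8, whose enzyme passes electrons to P450 proteins, had a difference of −0.03 with the block.

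No member passed between code 2 and code 1 of the HLH strain or between code 4 and code 3 of the marker strain by limma, where 0.0406% and 0.0568% of all tested probe sets passed, and 9 (8.33%) and 6 (5.56%) of the 108 members had an unadjusted p under 0.05, against 2.30% and 2.17% of all tested probe sets. Over both strains, codes 2 and 4 against codes 1 and 3, no member passed either (0.105% of all tested probe sets), and 15 (13.9%) had an unadjusted p under 0.05, against 4.13% of all tested probe sets. In the same comparison all 4 heat shock genes read as a check were higher, with a median log2 difference of 3.15. Of the 108 members 25 were higher and 41 lower in both strains at codes 2 and 4, a share not counted over all tested probe sets. Taken singly, 49.1% of members were below 0 in the HLH strain and 65.7% in the marker strain. Of all tested probe sets 51.8% and 49.3% were.

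The smallest p over both strains belonged to cyp-37B1. It had 818.5, 926.0 and 976.8 at code 2 against 506.1, 398.0 and 569.9 at code 1 of the HLH strain, and 1525.9, 1822.6 and 1290.3 at code 4 against 1082.9, 1394.9 and 738.3 at code 3 of the marker strain. The codes were apart in the HLH strain and overlapped in the marker strain. The mean difference of 0.73 ± 0.16 (SE, log2) did not pass, with an adjusted p of 0.265.

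The ugt-13 signal was 460.2, 775.1 and 508.1 at code 2 against 236.4, 355.8 and 305.3 at code 1, and 699.4, 868.2 and 753.9 at code 4 against 488.3, 718.8 and 481.3 at code 3. In each of the 5 pairs of a shared strain and set the array of code 2 or 4 was the brighter. The difference of 0.71 ± 0.17 (SE, log2) had an adjusted p of 0.303, and with the set number as a block it was 0.73 ± 0.10 (SE, log2) with an adjusted p of 0.00617. This was the 1 member that passed with the block, where 0.438% of all tested probe sets did. In the gene order ugt-13 ends a run of 7 ugt genes of which ugt-11, ugt-9, ugt-8 and ugt-13 were tested.

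For gst-29 the signals were 251.5, 233.9 and 234.8 at code 2 against 142.7, 142.7 and 175.3 at code 1, and 180.9, 180.3 and 266.3 at code 4 against 164.4, 115.0 and 156.6 at code 3. The codes did not overlap in either strain, but the difference of 0.58 ± 0.17 (SE, log2) did not pass (adjusted p = 0.656, and 0.122 with the block). The same held for cyp-32B1, at 0.52 ± 0.13 (SE, log2, adjusted p = 0.426). Values below 0 with small p were those of gst-12 at −0.40 (adjusted p = 0.767) and of gst-41 within the HLH strain at −0.73 ± 0.23 (SE, log2, adjusted p = 1.0).

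Whether a code difference had another size in the HLH strain than in the marker strain was tested under both matchings of the codes. The larger p was taken, so a member could pass only with a small p under both. Under 1 matching the tested value is the sum of the code differences of the strains, where opposite signs cancel. Few genes could pass this rule, and a count of 0 does not show that the strains had like code differences. No member passed by limma, and 0.0% of all tested probe sets did. Only 11 of the 12328 tested probe sets had an unadjusted p under 0.05 by this rule, among them 1 member, ugt-26. Its signals were 861.4, 691.0 and 682.6 at code 2 against 856.7, 674.4 and 731.9 at code 1, and 1059.7, 1279.1 and 1418.6 at code 4 against 1751.2, 2001.5 and 2128.6 at code 3. The HLH codes overlapped, while the marker codes did not. The difference within the marker strain was −0.65 ± 0.17 (SE, log2, adjusted p = 1.0).

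**Figure D2:**
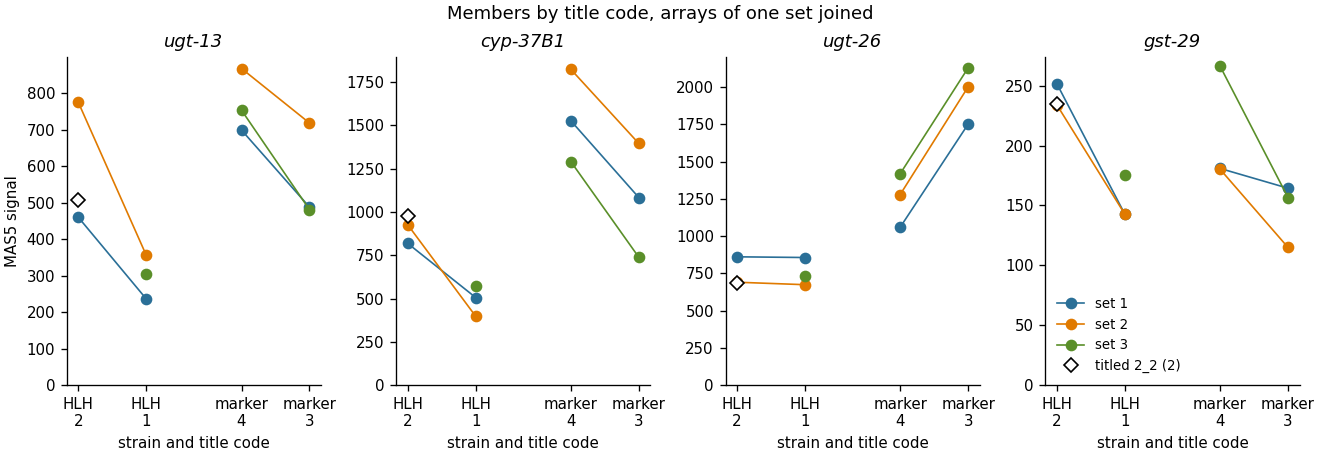
MAS5 signal of ugt-13, cyp-37B1, ugt-26 and gst-29 by strain and title code, code 2 left of code 1 and code 4 left of code 3, with arrays of the same set joined by a line and the array titled 2_2 (2) as an open diamond. Lines of ugt-13 and cyp-37B1 fall to the right in both strains, and ugt-26 separates codes 4 and 3, at 1060 to 1419 and 1751 to 2129.

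Among the comparisons of strain, code and set, most members passed for set 2. This set (4 arrays, 1 of each group) was compared with sets 1 and 3 (7 arrays) after fitting the 4 groups. Where 4 signals of set 2 are given, they are those of codes 2, 1, 4 and 3. The labels do not say what a set was, and differences of time, culture or handling between sets cannot be told apart here. Of 108 members 42 passed, 18 higher and 24 lower, which at 38.9% is near the 42.2% of all tested probe sets (24.8% higher and 17.4% lower). Arrays did not overlap for 5 higher and 10 lower members, with 19.3% of all tested probe sets free of overlap. By family, 17 of 30 gst genes were lower and 3 higher, 9 of 33 cyp genes were higher and 1 lower, and of 45 ugt genes 6 were higher and 6 lower. Without the code 3 array of set 2 the count of members was 25, with 17.4% of all tested probe sets higher and 11.8% lower. Without its code 4 array 23 members passed, with 16.9% of all tested probe sets higher and 11.9% lower. The number of higher cyp genes was 3 without the code 3 array of set 2, 4 without the code 3 or code 4 array of set 3, 5 without the code 4 array of set 2 or the code 1 array of set 1, and 14 without the code 1 array of set 3. Of higher gst genes there were 0 without the code 3 or code 4 array of set 2 and 1 without the code 2 array of set 1 or of set 2. Leaving out single arrays gave 3 to 6 higher and 2 to 7 lower ugt genes, with 3 and 2 without the code 4 array of set 2. Over the members above the array median on arrays of both sides, 38 of 102 passed (37.3%), 18 higher and 20 lower, against 41.3% of all such probe sets, and 15 of 26 gst genes were lower. The median log2 difference was −0.45 for gst, 0.26 for cyp and −0.10 for ugt genes, against 0.05 over all tested probe sets. With quantile normalisation in place of the authors' scaling, 18 gst genes were lower and 3 higher, and 2 cyp genes lower and 4 higher. Of the ugt genes 12 were then lower and 4 higher, and the median of the cyp genes was 0.12. In that setting 18.9% of all tested probe sets were higher and 19.8% lower, with a median of −0.02.

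**Figure D3:**
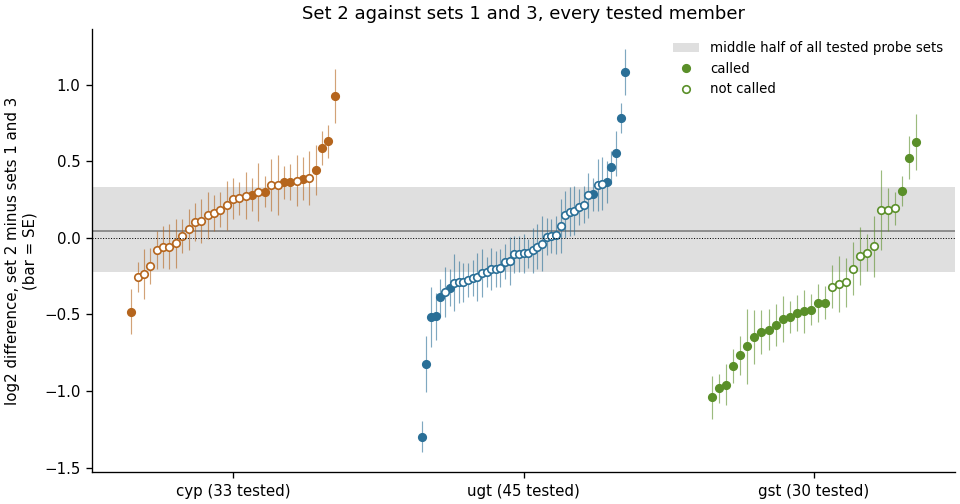
Log2 difference of set 2 minus sets 1 and 3 for every tested member, sorted within the cyp (33), ugt (45) and gst (30) genes, with bars for the SE and filled points for members that passed. The grey band holds the middle 50% of all tested probe sets. Most gst genes lie below the band, and their median is −0.45.

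Of the 5 brightest gst probe sets, those of gst-7, gst-1, gst-10 and gst-5 were lower in set 2, while gst-36 did not pass at 0.19. Signals of gst-1 were 3159.1, 2958.1, 2235.6 and 1910.7 in set 2, against 3432.8 at the lowest, 3931.7 at the median and 5892.3 at the highest in sets 1 and 3. Every set 2 array lay below the others, and the log2 difference was −0.84 ± 0.11 (SE, adjusted p = 0.000155). For gst-5 they were 1426.5, 1689.6, 814.2 and 1144.1 in set 2, against 1929.3, 2306.5 and 2933.6 in sets 1 and 3, again with no overlap (log2 −0.96 ± 0.13, SE, adjusted p = 0.000206). The gst-10 transcript, whose enzyme clears the lipid aldehyde named above, averaged 2174 ± 752 in set 2 (SD, n = 4) and 3429 ± 453 in sets 1 and 3 (SD, n = 7), which is −0.77 ± 0.13 on the log2 scale (SE, adjusted p = 0.000550). Others that were lower are gst-7 at −0.52, gst-22 at −0.47 and gst-6 at −0.62.

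Position in the genome was read from the gene order alone. There gst-26, gst-27, gst-28, gst-29, gst-39 and gst-31 follow each other, all were tested, all 6 had differences below 0 and 5 passed. Of these gst-31 was above the array median on no set 2 array, so the filter favoured a lower value of it there. Without it 4 of 5 neighbours remain. Over all 30 tested gst genes, these included, 80.0% were below 0 and 56.7% passed as lower. Whether the run differs from the rest of the family was not tested. The gst-27 signal was 711.8, 991.9, 978.4 and 945.6 in set 2, against 1282.4 at the lowest, 1569.6 at the median and 2688.9 at the highest in sets 1 and 3. Set 2 lay apart, at −0.98 ± 0.10 on the log2 scale (SE, adjusted p = 2.31e-05). For gst-26 the signals were 575.6, 786.1, 604.6 and 733.9 in set 2, against 967.7, 1357.7 and 2243.9 in sets 1 and 3, with no overlap (log2 −1.04 ± 0.14, SE, adjusted p = 0.000160). Further along, gst-28 was lower at −0.60, gst-39 at −0.49 and gst-31 at −0.71, while gst-29 at −0.29 did not pass (adjusted p = 0.155).

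Other runs of gst neighbours had other values. A run of 9 gst genes from gst-20 to gst-18 had 5 tested members, of which gst-24 was higher at 0.31 and none was lower. The run gst-6, gst-7 and gst-8 had 2 tested members, both lower, and gst-3, gst-2 and gst-4 had 2 tested, gst-3 being higher at 0.63 and gst-4 not passing at −0.12. The remaining gst gene that was higher, gst-40, had a difference of 0.52, and its other probe set had 0.11 (adjusted p = 0.587).

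**Figure D4:**
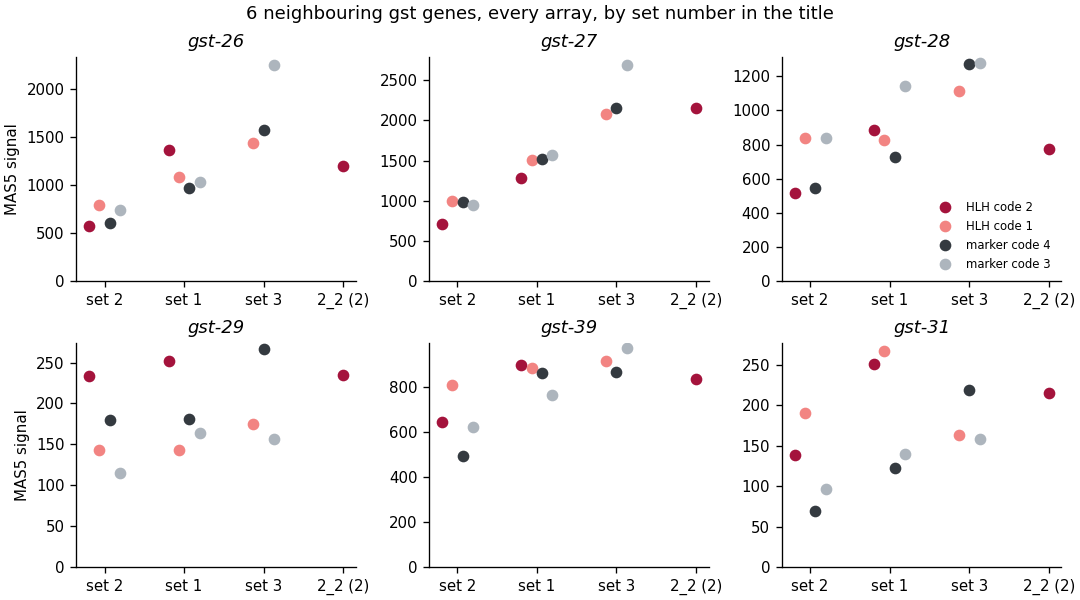
MAS5 signal of 6 neighbouring gst genes on every array, with set 2 left of sets 1 and 3 and the array titled 2_2 (2) at the right, coloured by strain and code. All 4 set 2 arrays of gst-26 and gst-27 lie below every array of sets 1 and 3, and gst-29 overlaps.

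Set 2 was also read within each group, on the same arrays that gave the calls, so these values add no separate evidence. At code 2 the set 2 array was set against 1 other, and in the remaining groups against 2. Shares over all tested probe sets were not counted for these signs, nor for those of the cyp genes below. Of 30 tested gst genes 17 were below 0 in set 2 in each of the 4 groups and 3 were above 0 in each. Medians over the family were −0.48 at code 2 and −0.18 at code 1 of the HLH strain, and −0.54 at code 4 and −0.46 at code 3 of the marker strain, on the log2 scale. Leaving out any single array left between 13 and 18 lower gst genes. Tested without a set 2 array above the median were gst-14, gst-21, gst-23 and gst-31, as well as cyp-34A3 and ugt-15, and for these a lower value in set 2 was favoured by the filter. A filter on the mean signal left 24 gst genes, of which 15 were lower and 3 higher.

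Of 33 tested cyp genes 11 were above 0 in set 2 in each of the 4 groups and 3 were below 0 in each. The family's medians were 0.17 at code 2 and 0.05 at code 1 of the HLH strain, and 0.25 at code 4 and 0.43 at code 3 of the marker strain, on the log2 scale. Without the code 3 array of set 2 the median of the cyp genes was 0.09. The cyp genes that were higher in set 2 came from the cyp-33, cyp-13, cyp-35, cyp-37 and cyp-34 groups. The cyp-33C4 signal was 398.7, 383.1, 343.3 and 370.1 in set 2, against 183.3 at the lowest, 219.8 at the median and 294.9 at the highest in sets 1 and 3. Set 2 lay above every other array, by 0.63 ± 0.11 on the log2 scale (SE, adjusted p = 0.000743). The related cyp-33C8 was higher at 0.58 ± 0.11 and cyp-33C3 at 0.93 ± 0.18 (SE, log2, adjusted p = 0.00140 each). The xenobiotic response gene cyp-35A2 had 1364 ± 138 in set 2 (SD, n = 4) and 1067 ± 115 in sets 1 and 3 (SD, n = 7), with no overlap (log2 0.36, adjusted p = 0.0223). Smaller differences were found for cyp-13B1 at 0.36, cyp-37A1 at 0.30, cyp-33E1 at 0.39, cyp-34A9 at 0.44 and cyp-33A1 at 0.28. The pseudogene cyp-34A3 was lower, at −0.48. Of the 10 cyp calls, those of cyp-33C4, cyp-33C8 and cyp-33C3 held under every alternative and without every single array.

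Among the ugt genes the clearest difference was that of ugt-23. It had 584.0, 645.2, 688.2 and 613.0 in set 2, against 1310.8 at the lowest, 1679.3 at the median and 1869.2 at the highest in sets 1 and 3. Its set 2 arrays lay far below all others, 2.46-fold lower on average (log2 −1.30 ± 0.10, SE, adjusted p = 6.56e-06). The gene ugt-62 was lower too at −0.83 ± 0.18, as were ugt-16 at −0.52, ugt-15 at −0.51, ugt-22 at −0.39 and ugt-33 at −0.33.

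Opposite to these, ugt-17 had 1079.8, 620.0, 1215.7 and 1124.1 in set 2, against 306.2, 448.5 and 709.2 as the lowest, median and highest of sets 1 and 3. The array of code 1 in set 2 fell inside the range of the others, and the difference was 1.08 ± 0.15 (SE, log2, adjusted p = 0.000203). The ugt-50 signal was 1021.7, 1026.9, 881.1 and 790.6 in set 2, against 382.0, 526.8 and 675.6 in sets 1 and 3, with set 2 above all others (log2 0.78 ± 0.10, SE, adjusted p = 0.000113), and its other probe sets had 0.77 and 0.20. Also higher were ugt-29 at 0.55, ugt-13 at 0.46, ugt-18 at 0.36 and ugt-47 at 0.28. Of neighbours, ugt-18 was higher while ugt-16 and ugt-15 beside it were lower, and ugt-15 was above the array median on no set 2 array. The calls of ugt-23, ugt-17, ugt-50 and ugt-13 held under every alternative and without every single array. Those of ugt-18 and ugt-47 were lost without any of 9 of the 11 single arrays, and those of ugt-16 and ugt-33 without any of 8.

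Of the other detoxification genes 16 of 44 passed, 12 higher and 4 lower in set 2, which at 36.4% is below the 42.2% of all tested probe sets. Of 8 tested regulators 5 were higher, where 24.8% of all tested probe sets were, and wdr-23 at 1.11 (1539 in set 2 and 729 in sets 1 and 3 as mean signals, adjusted p = 1.38e-05) and skn-1 at 0.78 (2302 in set 2 and 1361 in sets 1 and 3, adjusted p = 0.000119) had the smallest p. The glutathione synthesis gene gcs-1, a known SKN-1 target, was higher at 0.38, and the glutathione reductase gene gsr-1 was lower at −0.39. The omega class gene gsto-3 was lower at −1.01 (359 in set 2 and 715 in sets 1 and 3, adjusted p = 3.95e-05), and pgp-5 was higher at 1.37.

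Some tissue markers also differed along the set number, where 24.8% of all tested probe sets were higher and 17.4% lower in set 2. Of 9 intestine markers 5 were lower, act-5 at −0.76 and asp-1 at −0.70 most, and elt-7 was higher at 0.41. Their summed signal was 32121 to 40257 in set 2 and 40536 to 58150 in sets 1 and 3, without overlap. Of 7 germline markers 4 were lower and 1 higher, with sums of 2857 to 4364 in set 2 and 4164 to 5211 in sets 1 and 3. Muscle markers were lower in 4 of 6 cases, with sums of 29597 to 38070 in set 2 and 34995 to 46265 in sets 1 and 3. Of 9 hypodermal markers 2 were lower and 1 higher, a share of 33.3% that is below the 42.2% of all tested probe sets. Of the 2 tested sperm markers spe-9 was lower at −0.71, and the other did not pass at 0.11. Only 1 yolk marker was tested, vit-6, which was lower at −0.73. The part of these tissues in the gst, cyp and ugt differences was not tested.

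The member with the smallest p of each family was also set against 11754 other tested single-gene probe sets by the Pearson correlation of log2 signal over the 12 arrays, as a description. Closest to ugt-23 were asp-5 at 0.998, unc-87 at 0.979 and fce-1 at 0.976. Closest to gst-27 were ogdh-1 at 0.962, ZK899.2 at 0.957 and endu-2 at 0.954, and closest to cyp-33C4 were alh-6 at 0.966, tufm-2 at 0.945 and T25E4.1 at 0.940. The 12 arrays share 4 groups and the set numbers, which enter every such value.

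Set 3 was compared with set 1 over 7 arrays in the same fit. Of 108 members 3 passed, where 1.35% of all tested probe sets did. Over those above the array median on arrays of both sets, the count was 2 of 101 members (1.98%), against 1.25% of all such probe sets. The gst-21 signal was 132.7 at code 1, 92.5 at code 4 and 132.8 at code 3 of set 3, against 348.3, 568.9, 296.1 and 261.9 at codes 2, 1, 4 and 3 of set 1. The sets were apart, at −1.55 ± 0.22 on the log2 scale (SE, adjusted p = 0.0121). Of these 7 arrays only those of set 1 took gst-21 above the array median, so the filter favoured a lower value in set 3. The ugt-15 transcript was lower as well, at 157 ± 43 in set 3 (SD, n = 3) and 327 ± 120 in set 1 (SD, n = 4), which is −1.05 ± 0.19 on the log2 scale (SE, adjusted p = 0.0241). The gst-27 transcript was higher, at 2310 ± 330 in set 3 (SD, n = 3) and 1469 ± 127 in set 1 (SD, n = 4), which is 0.56 ± 0.12 on the log2 scale (SE, adjusted p = 0.0484). Its neighbour gst-26 had 1747 ± 436 in set 3 (SD, n = 3) and 1108 ± 173 in set 1 (SD, n = 4) and did not pass (adjusted p = 0.0830). No cyp gene passed by limma. Of the 33 tested, 5 (15.2%) had an unadjusted p under 0.05, below the 18.6% of all tested probe sets. The smallest p was that of cyp-33A1, with a log2 difference of 0.51 (adjusted p = 0.0783). The calls rest on single arrays. Without the code 1 or code 4 array of set 1 or the code 4 array of set 3, 0 members passed. Of all tested probe sets 0.00811% were called each way without the code 4 array of set 1. Without the code 1 array of set 3, 13 members passed, with 1.88% of all tested probe sets higher and 3.7% lower.

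Members of large families share sequence, which bears on which gene a signal belongs to. The representing probe sets of 30 of the 177 members have names with an ending that Affymetrix gives to probes shared with other transcripts, among them those of gst-41 and ugt-12, called between the strains, and of gst-27, ugt-17, ugt-50 and cyp-33C4, called for set 2. For these the signal may include related genes. Of 9 members with further probe sets, cyp-42A1 and ugt-46 had a second probe set that was lower in set 2 (−0.40 and −0.57) where the brighter one did not pass (−0.08 and −0.20).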

How the data were processed

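Biotin-labelled cRNA from total RNA of lysates was read on 12 arrays, per the labels. The authors deposited linear probe set intensity as MAS5 signals. The submitters' processing notes give MAS5 as the tool, with version and settings not given in the sources used here. A 2% trimmed mean of 500.1 on every array shows the authors' scaling, which was kept. Local background subtraction makes low signals noisy. Code gives the group, the source name the strain and the first number of the title the set.

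Values under the 10th percentile of all signals, 16.7, were raised to it (0.0291% of tested values), and log2 was taken. Tested were probe sets whose signal exceeded the array median on 3 or more arrays (12328 of 22625 probe sets, 77 controls left out). The 4 groups were fitted with limma 3.58.1 in R 4.3.3 (lmFit and eBayes with an intensity trend, 8 residual and 4.87 prior degrees of freedom), with two-sided tests and Benjamini-Hochberg adjustment over all tested probe sets of a comparison, and an adjusted p under 0.05 counted as passing. Sets were compared in a fit of groups and sets on 11 arrays (5 residual and 7.76 prior degrees of freedom). The scripts were tested on simulated data. Differences are between mean log2 values, while means ± SD of signals are linear.

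Whether set numbers pair the arrays was checked on deviations from group means: all 15 pairs of arrays with the same number correlated at 0.307 to 0.785, and 30 pairs with different numbers at −0.691 to 0.526, so the set number was taken as a pairing. Blocked values, without the array titled 2_2 (2), stand beside results where they change a call or a count.

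Of the probe sets 20766 have 1 gene in the platform's annotation, 887 several and 972 none listed, and 20701 symbols were updated by gene ID from a RefSeq gene table (assembly WBcel235), which served for names and gene order only. All 177 members matched it. Named are, per family, the 5 brightest members, those that passed (up to 10 with the smallest p each way), the 2 with the smallest p per comparison, the 4 most and 2 least variable and the 3 brightest untested. Of the other lists those with the smallest p are named, and a few more genes (gst-4, ugt-32, ugt-2, ugt-61, gst-29, gst-31, gcs-1, gsr-1, emb-8, sqv-4, qua-1) were named after their values were seen. The members and lists were chosen with earlier results of these data known. Alternatives were other floors, filters, normalisation and variance settings, averaged probe sets, the set number as a block, other places for the array titled 2_2 (2), and leaving out set 2 or single arrays.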

Additional observations from a re-analysis of the deposited data

Results flagged for a closer look

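In 3 of 106 groups of 4 to 7 arrays examined for the members that passed, the outermost array stood farther from the rest than Dixon's 95% limit for its number of arrays, and chance alone gives such a gap in about 1 of 20 groups. For ugt-44 the code 2 array of set 2 had 566.8, and the other 5 HLH arrays had 758.8 to 882.8. For gst-27 the same array had 711.8, and the other set 2 arrays had 945.6 to 991.9. For gst-6 the code 4 array of set 3 had 2046.0, and the other arrays of sets 1 and 3 had 1241.2 to 1501.2.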

How the results depend on the processing

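Between the strains 11 members passed, 31 with the set number as a replicate block (32 with the array titled 2_2 (2) put in set 3), 6 with no filter on dim probe sets and 5 without the 4 arrays of set 2. Leaving out single arrays gave 6 to 11: 6 without the code 3 array of set 2, and 7 without the code 1 or code 2 arrays of sets 1 and 2 or the code 4 arrays of sets 2 and 3. Between code 2 and code 1 no member passed, and 1, ugt-13, passed with the block and that array in set 3. Over both strains 1 member passed between codes with the replicate block, and 1 with that array in set 3, against 0 without it. The paired fit gave 0 for the interaction, as did the fit without it, with the larger p of both matchings taken in each. No member passed between codes 4 and 3 in any setting. For set 2 the count was 42 and stayed between 33 and 43 in other settings, and single arrays left out gave 23 to 49, with 25 without the code 3 array and 23 without the code 4 array of set 2. For set 3 against set 1 the count of 3 became 0 with no filter, and single arrays left out gave 0 to 13, with 0 without the code 1 or code 4 array of set 1 or the code 4 array of set 3, 1 without the code 3 array of set 1 or of set 3, 5 without the code 1 array of set 2 and 13 without the code 1 array of set 3. Counting only probe sets above the array median on arrays of both sides of a comparison, a choice made after seeing the data, gave 10 members between the strains, 38 for set 2 and 2 for set 3. No value of a named gene that had passed changed sign in any setting. Shares over all tested probe sets moved as well. Between the strains they were 1.13% higher and 1.59% lower at first, and 0.488% and 0.63% with no filter on dim probe sets, where all 177 members were tested. Without the 4 arrays of set 2 they were 0.6% and 0.982%. They were 0.795% and 1.16% without the code 3 array of set 2, and 0.535% and 0.973% without the code 1 array of set 1. With the block and the array titled 2_2 (2) in set 3 they were 6.63% and 6.86%. For set 2 they were 17.4% higher and 11.8% lower without its code 3 array, and 16.9% and 11.9% without its code 4 array. For set 3 against set 1 they were 0.00811% each way without the code 4 array of set 1. Without the code 1 array of set 3 they were 1.88% higher and 3.7% lower. Fewer or other arrays and tested probe sets changed in these settings, and the cause of each shift was not tested. Signals near the array median are noisy, so 69 members gave no result.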
